A study of Homo sapiens with 4 samples.

Results

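The intervals described here are the 299 CUT&RUN peaks on human chromosome 19 that were listed for the transcription factor SOX2, for its DNA-binding domain alone (SOX2-DBD), or for both. They were taken from 58827 such intervals in the whole genome: every row of either peak list on chromosome 19 was kept, exact duplicate rows were counted once, and a row present in both lists was counted once and called shared. Both proteins were mapped in the established human foreskin fibroblast line BJ, 48 h after ectopic expression of either one carrying a V5 peptide tag, against which the CUT&RUN antibody was directed. The labels name 4 samples, 2 with SOX2 and 2 with SOX2-DBD, all of the same line, antibody and time, and no sample without an introduced factor was analysed here. Peak lists were filed under the first replicate of each group, and whether they were called on it alone is not stated. Every value below rests on 1 list per group, and none has an error between replicates. Brackets after a share or density hold 95% intervals (Wilson for shares, exact Poisson for densities, exact binomial for density ratios and Newcombe for differences between shares). They cover counting error over genomic intervals, which are not replicates.

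SOX2 binds DNA through an HMG box, a domain that sits in the minor groove, recognises a short AT-rich core (ACAAAG or ACAATG) and bends the helix, and SOX2 is known as a pioneer factor that can reach its sites in compacted chromatin. Chromosome 19 is known as the most gene-dense and most GC-rich human autosome. It also carries the large tandem clusters of KRAB zinc-finger genes, whose products are repressors that bind transposable elements, and whose bodies are known for repressive chromatin marked by histone H3 methylation.

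Of the 299 intervals, 229 were SOX2-only, a class that takes 74.1% of all 58827 intervals. A further 62 were shared (24.3% of all) and 8 were SOX2-DBD-only (1.56% of all). The sequences below are the 200 bp windows at the centres of 5 of them, from the GRCh37 (hg19) plus strand, and stand for the kinds of site described in the sections that follow. In the windows near DNM2 and KHSRP, which show the GC-rich sites at gene starts, capitals mark CCAAT or its reverse complement ATTGG, and the 1 SOX core of the DNM2 window is left in lower case. In the ZNF582 window capitals mark an AP-1 motif (TGACTCA or TGAGTCA). The windows without capitals show AT-rich SOX2-only sites of high signal and hold neither a SOX core nor an AP-1 motif on either strand. The window outside genes holds 3 copies of CCAAT, counting both strands, left in lower case.
Shared, near DNM2 (chr19:10828351-10828550): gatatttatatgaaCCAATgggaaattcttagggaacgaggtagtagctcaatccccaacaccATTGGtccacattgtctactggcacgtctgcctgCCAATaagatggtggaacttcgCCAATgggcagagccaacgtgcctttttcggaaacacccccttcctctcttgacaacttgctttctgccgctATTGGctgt
Shared, near KHSRP (chr19:6425085-6425284): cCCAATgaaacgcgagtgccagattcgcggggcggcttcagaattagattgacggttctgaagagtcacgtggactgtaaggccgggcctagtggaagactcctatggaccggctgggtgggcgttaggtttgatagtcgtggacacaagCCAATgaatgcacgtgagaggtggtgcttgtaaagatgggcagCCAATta
Shared, in ZNF582 (chr19:56895236-56895435): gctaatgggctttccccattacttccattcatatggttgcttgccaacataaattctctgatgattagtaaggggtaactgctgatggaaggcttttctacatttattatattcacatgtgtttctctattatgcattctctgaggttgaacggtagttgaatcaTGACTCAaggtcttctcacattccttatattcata
SOX2-only, in ZNF254 (chr19:24281094-24281293): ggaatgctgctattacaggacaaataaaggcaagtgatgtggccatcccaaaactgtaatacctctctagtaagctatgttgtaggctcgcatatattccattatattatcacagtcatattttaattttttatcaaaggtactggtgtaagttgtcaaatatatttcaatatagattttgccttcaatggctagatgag
SOX2-only, outside genes (chr19:29242890-29243089): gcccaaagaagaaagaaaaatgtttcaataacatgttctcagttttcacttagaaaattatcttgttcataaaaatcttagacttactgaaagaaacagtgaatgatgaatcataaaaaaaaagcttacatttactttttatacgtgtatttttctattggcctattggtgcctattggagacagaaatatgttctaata

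Intervals were sparse on chromosome 19. It held 5.36 intervals per Mb of determined sequence (4.77 to 6.001), the lowest density among the 22 autosomes. Among the other 21, the sparsest was chromosome 16 with 10.9 and the densest chromosome 6 with 27.2, around a median of 21.1. The density was 0.243 times (0.216 to 0.272) that of the other autosomes pooled, at 22.1 per Mb. SOX2-only intervals stood at 0.251 times (0.219 to 0.286) the density elsewhere and shared intervals at 0.206 times (0.158 to 0.265). The 8 SOX2-DBD-only intervals gave 0.422 times (0.182 to 0.836), and the counting intervals of the 3 ratios overlap. The down-sampled SOX2 list placed 180 intervals on the chromosome, 0.224 times (0.193 to 0.260) its density elsewhere.

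The same chromosome ranked highest in genes and in GC content. Its 1480 protein-coding genes came to 26.5 per Mb, against 15.3 on the next, chromosome 17, and its GC content was 48.4% against 48.0% on chromosome 22. Chromosome 22, the nearest in GC, held 11.3 intervals per Mb (10.3 to 12.5), and chromosome 17, the nearest in gene density, held 18.999 (18.04 to 19.99). Both lie outside the counting interval of chromosome 19. Over the 22 autosomes, density and GC content had a Pearson r of -0.819 (Spearman rho -0.65), and r was -0.735 over the 21 without chromosome 19. With genes per Mb, r was -0.741 over 22 and -0.512 over 21. These are descriptions over chromosomes that share the same libraries, and GC content and gene density themselves go together.

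**Figure D1:**
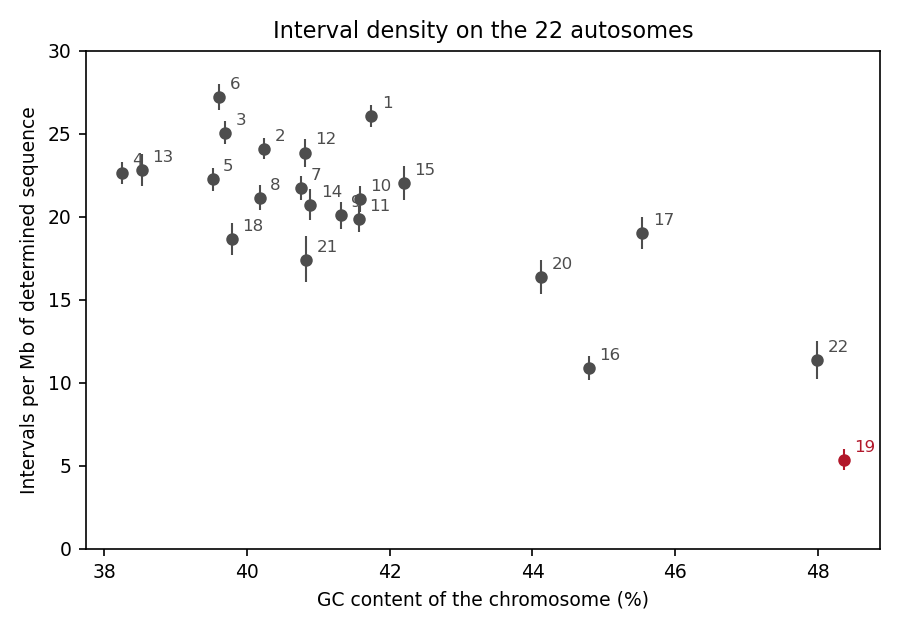
Intervals per Mb of determined sequence (vertical axis) against GC content in percent (horizontal axis) for each of the 22 autosomes, labelled by number, with bars for exact Poisson 95% intervals. Chromosome 19, in red, sits lowest at 5.36 per Mb and farthest right at 48.4% GC, and chromosome 22, at nearly the same GC content, lies at 11.3.

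The low density was present in AT-rich as well as GC-rich stretches of the chromosome. The genome was cut into 10 kb tiles, and the density of the other autosomes in each band of 2 percentage points of GC was applied to the tiles of chromosome 19. That predicted 575 intervals against the 299 observed, a ratio of 0.520 (0.463 to 0.582). The same calculation for each other autosome gave from 0.678 on chromosome 16 to 1.31 on chromosome 17, so chromosome 19 stayed lowest. Adding the share of each tile covered by protein-coding genes gave 0.503 (0.448 to 0.564). At equal GC the ratio was 0.557 (0.487 to 0.634) for SOX2-only and 0.421 (0.323 to 0.540) for shared intervals.

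By GC content of the tile, the gap was widest where most intervals lie elsewhere in the genome. In tiles under 42% GC, chromosome 19 held 11.5 intervals per Mb (9.50 to 13.9) against 27.9 on the other autosomes. Between 42% and 48% it held 7.41 (6.18 to 8.82) against 14.5, and at 48% or more 2.07 (1.58 to 2.67) against 3.57. Tiles of 48% GC or more made up 51.9% of chromosome 19 and 11.3% of the others. In the GC-richest bands the order turned: between 56% and 58% GC, 5 intervals gave 1.74 per Mb (0.566 to 4.07) against 0.849, and in tiles of 58% or more 4 intervals gave 1.11 (0.301 to 2.83) against 0.399. Both counting intervals include the value of the other autosomes.

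**Figure D2:**
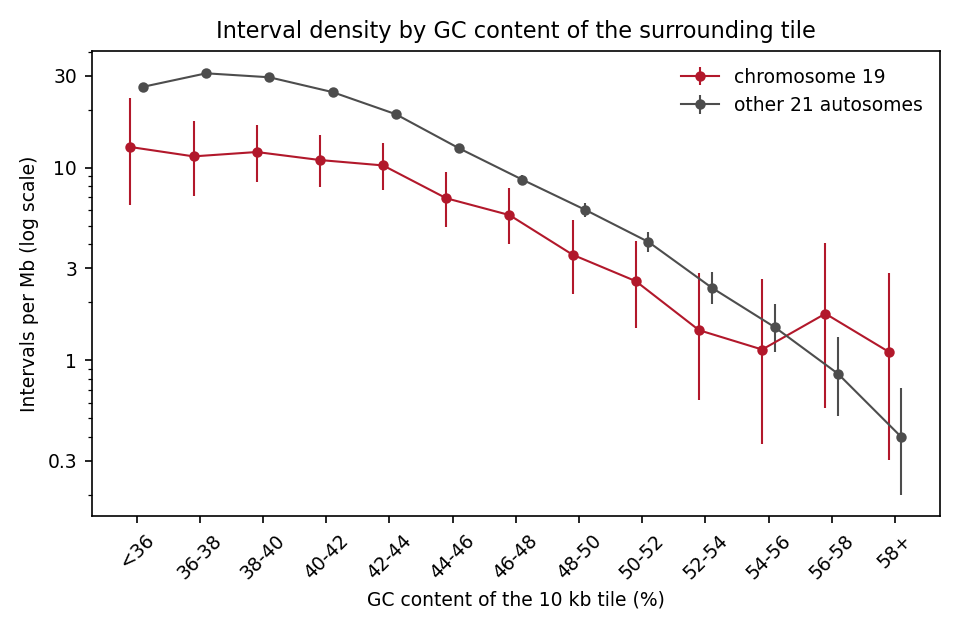
Intervals per Mb on a logarithmic vertical axis against the GC content of the surrounding 10 kb tile, for chromosome 19 (red) and the other 21 autosomes (grey), with exact Poisson 95% intervals. Chromosome 19 lies below the others in each band up to 56% GC, by 10.9 against 24.7 per Mb in the 40% to 42% band, and above them in the highest bands, where it has 5 and 4 intervals.

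Repeated sequence, in which short reads cannot be placed uniquely, was also more frequent on this chromosome. Of its 31-mers, 23.4% occurred more than once in the genome, against 14.9% in 1 of every 10 tiles of the other autosomes. Per Mb of bases that start a unique 31-mer, chromosome 19 had 0.269 times (0.239 to 0.302) the density of the others. With tiles matched for both GC band and repeated 31-mers, observed over expected was 0.552 (0.491 to 0.618).

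The division between full-length SOX2 and its DNA-binding domain did not differ from that of the other autosomes beyond counting error. With GC content weighted, the values of the other autosomes for SOX2-only and shared fell outside the counting intervals of chromosome 19. SOX2-only intervals made up 76.6% (71.5 to 81.03) of the 299, shared intervals 20.7% (16.5 to 25.7) and SOX2-DBD-only intervals 2.68% (1.36 to 5.19), against 74.1%, 24.3% and 1.56% of all 58827. Against the other autosomes the differences were +2.52 points (-2.61 to 6.98), -3.66 points (-7.88 to 1.31) and +1.14 points (-0.179 to 3.66), each with 0 inside its interval. Among the other 21 autosomes the shared class ranged from 20.4% on chromosome 14 to 28.2% on chromosome 6, so 20.7% lies within that range. Weighted to the GC content of the windows on chromosome 19, the other autosomes would give 69.2% SOX2-only, 26.1% shared and 4.73% SOX2-DBD-only. The values for SOX2-only and shared lie outside the intervals of chromosome 19, which had more SOX2-only and fewer shared intervals than that. The value for SOX2-DBD-only lies inside. For shared the margin is small, 26.1% against an upper limit of 25.7%, and the weighted values were given no interval of their own.

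Genes were reached less often, both per gene and per length. An interval centre lay in the body of 129 protein-coding genes, 8.72% of the 1480, where the other autosomes ranged from 21.8% to 62.7%. Genes of chromosome 19 are short, with a median of 15.9 kb, the lowest of the autosomes. Within length classes the difference remained: of genes of 100 kb or longer, 16 of 38 (42.1%, 27.8 to 57.8) held an interval, against 85.0% elsewhere. Of genes between 30 and 100 kb, 22.6% (18.6 to 27.3) did, against 60.9%. Per Mb of gene, those between 30 and 100 kb held 7.30 intervals against 29.5, and those of 100 kb or longer 4.975 against 30.8. The longer class has no upper bound, so gene lengths within it were not matched. Per 100 protein-coding genes the chromosome had 20.2 intervals, and the other autosomes had from 88.0 to 677.

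Although the chromosome is GC-rich, the intervals picked out its AT-rich sequence. The 200 bp windows at their centres averaged 36.1% ± 7.20 GC (SD over the 299 windows), close to the 33.99% of the other autosomes. All 200 bp tiles averaged 48.4% GC on chromosome 19 and 40.8% on the others, and windows 10 kb downstream of the chromosome 19 centres averaged 45.9%. Windows under 40% GC made up 81.6% of the intervals and 19.9% of the tiles of the chromosome. The mean rose from class to class, at 34.4% for SOX2-only, 40.4% for shared and 50.3% for SOX2-DBD-only windows. On the other autosomes the same order held at 33.4%, 35.3% and 40.6%, with smaller steps.

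A second, GC-rich group stood apart from these. Windows of at least 50% GC numbered 19, or 6.35% (4.11 to 9.71) of the 299, against 0.338% on the other autosomes. The backgrounds differ too: tiles under 50% GC made up 53.9% of chromosome 19 and 82.1% of the others. Windows of at least 50% GC were thus rarer among intervals than among tiles on both. A transcription start lay within 1 kb of 16 of the 19 (84.2%), and of 81 of the 196 such windows elsewhere (41.3%). By class, 12 of the 19 were shared, 4 SOX2-DBD-only and 3 SOX2-only.

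**Figure D3:**
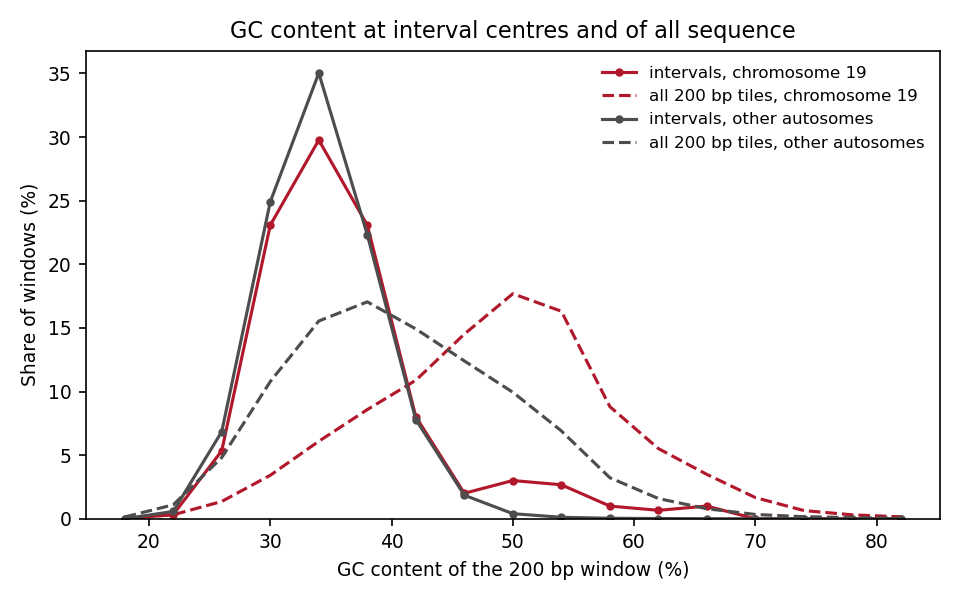
Share of 200 bp windows in percent (vertical axis) by GC content in percent (horizontal axis), at interval centres (solid lines) and over all tiles (dashed lines), for chromosome 19 (red) and the other autosomes (grey). The solid lines nearly coincide at their peak near 34% GC although the dashed lines differ, and the red solid line has a shoulder at 50% GC and above that the grey one lacks.

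Shared intervals lay at gene starts more often than SOX2-only intervals did. Within 1 kb of a transcription start of any annotated transcript lay 40 of the 299 centres (13.4%, 9.98 to 17.7), fewer than the 18.9% of the bases of the chromosome that lie there. Of SOX2-only intervals, 20 of 229 did (8.73%, 5.73 to 13.1), and of shared intervals 17 of 62 (27.4%, 17.9 to 39.6), a difference of 18.7 points (8.19 to 31.2). On the other autosomes 7.82% of shared and 6.41% of SOX2-only intervals lay near starts, where 7.43% of bases do. The chromosome 19 share of the shared class was higher by 19.6 points (10.0 to 31.8), but so is its share of bases. Relative to bases, shared intervals stood at 1.45 times on chromosome 19 and 1.05 times elsewhere. The interval of the shared class on chromosome 19, 17.9 to 39.6, includes the 18.9% of bases. Counted at starts of protein-coding transcripts alone, the shares were 12 of 62 (19.4%) and 6 of 229 (2.62%), around the 8.95% of bases there. Out to 5 kb the classes did not separate, at 31 of 62 shared and 114 of 229 SOX2-only intervals (49.8%) against 56.7% of bases. Within 1 kb of a start of any transcript lay 3 of 8 SOX2-DBD-only intervals (37.5%, 13.7 to 69.4), against 11.5% of that class elsewhere. Of the intervals away from starts, introns held 53.2% of the 299 against 47.3% of bases, and exons 8.70% against 7.52%.

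**Figure D4:**
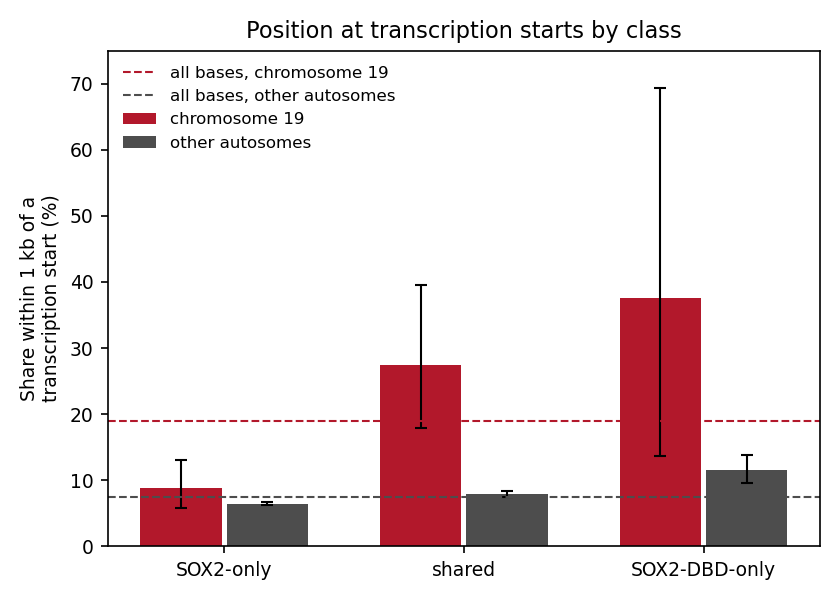
Share of intervals within 1 kb of a transcription start in percent (vertical axis) for each class, on chromosome 19 (red bars) and the other autosomes (grey bars), with Wilson 95% intervals and dashed lines for the share of all bases that lie there. On chromosome 19 the SOX2-only bar, at 8.73%, is under the line at 18.9%. The shared bar, at 27.4%, is above that line, with an interval that crosses it. On the other autosomes the SOX2-only and shared bars lie near the line at 7.43%, and the SOX2-DBD-only bar is at 11.5%.

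The GC-rich shared sites at starts carried CCAAT, the motif bound by NF-Y, a ubiquitous promoter factor. This was looked for after the printed windows had been seen, so it is a description. Of the 17 shared windows near starts, 10 held at least 2 copies of CCAAT, counting both strands (58.8%, 36.01 to 78.4). Of all tiles near starts on the chromosome, weighted to the same GC content, 3.27% did. The copies were in the GC-rich windows: 10 of the 12 shared near-start windows of at least 48% GC held 2 or more (83.3%, 55.2 to 95.3), against 2.54% of near-start tiles of that GC. Of the 5 shared near-start windows under 48% GC, 0 held a copy. On the other autosomes the same count was 17 of 51 shared (33.3%, 21.97 to 47.03) and 11 of 23 SOX2-only windows (47.8%, 29.2 to 67.04), against 2.31% of tiles. The 3 SOX2-only windows of this kind on chromosome 19 held 1 copy each, and the 3 SOX2-DBD-only ones held 0.

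The shared site with the highest total signal at a protein-coding start lay 304 bp from the start of DNM2, the dynamin GTPase of endocytosis (chr19:10828201-10828701, total signal 4693), and its printed window holds 5 copies of CCAAT. The next lay 363 bp from KHSRP, an RNA-binding protein of splicing and mRNA decay (total signal 3912), with 3 copies. Sites with 2 copies lay 417 bp from HDGFL2, which binds chromatin (3893), 438 bp from HNRNPUL1 (3868) and 395 bp from HNRNPL (3009), the latter pair being RNA-binding hnRNP proteins. CIC, a transcriptional repressor, had a site with 3 copies at 343 bp (2656). PRMT1, an arginine methyltransferase, had one with 2 copies at 155 bp (1849), as did KMT5C, a histone H4 methyltransferase, at 373 bp (1518), and CYTH2, an exchange factor for ARF GTPases, at 84 bp (2197), all 3 named after their values were seen. GET3, which targets tail-anchored proteins to membranes, had 1 copy at 83 bp (2986). The site 708 bp from a transcript start inside the gene of EML2, a microtubule-associated protein, had a window of 38.5% GC with 0 copies and 1 AP-1 motif (2808). All these distances run to the nearest annotated start of a protein-coding transcript, which can lie inside the gene. A SOX core lay in the windows of EML2, DNM2 and HNRNPL, 1 in each.

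The zinc-finger gene clusters held more SOX2-only intervals per Mb than the rest of the chromosome, and a smaller share of their intervals was shared. Clusters were runs of at least 5 genes with zinc-finger symbols (ZNF, ZFP, ZSCAN, ZKSCAN, ZIK or ZIM) whose gaps were at most 250 kb. There were 12, with 247 of the 264 such genes, over 13.2 Mb or 23.7% of the sequence, at 43.5% GC against 49.9% outside. Inside lay 85 intervals, 6.42 per Mb against 5.03 outside, a ratio of 1.28 (0.982 to 1.65) whose interval includes 1. SOX2-only intervals were denser inside by 1.54 times (1.15 to 2.04), and shared intervals stood at 0.477 times (0.196 to 1.01), an interval that includes 1. Of the 85, 8 were shared (9.41%, 4.85 to 17.5), against 54 of 214 outside (25.2%, 19.9 to 31.4), a difference of -15.8 points (-23.5 to -6.14).

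The shared intervals of the clusters were among those of high signal. In the lower 50% of all intervals by total signal, 0 of 35 inside were shared, with an upper Wilson limit of 9.89%, against 29 of 120 outside (24.2%). In the upper 50%, 8 of 50 were shared inside (interval 8.34% to 28.5%) and 25 of 94 outside (26.6%, 18.7 to 36.3). Which group gave the signal of shared rows is not known, so the classes may not be on the same scale. Intervals inside clusters were also wider, with a median of 601 bp against 451 bp outside.

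Against the GC content of their own tiles, however, the clusters were the emptier part. Tiles mostly inside clusters held 86 intervals where the other autosomes predict 239, a ratio of 0.360 (0.288 to 0.444), and the remaining tiles 213 where 336 were predicted, 0.634 (0.552 to 0.725). With repeated 31-mers matched as well, the ratios were 0.390 (0.312 to 0.482) and 0.663 (0.577 to 0.758). Repeated 31-mers were about as frequent in cluster tiles (24.5%) as in the rest (23.1%). The 12 clusters of zinc-finger genes on other autosomes, 4.75 Mb in all, held 57 intervals. Without matching for GC content, this was 0.543 times (0.411 to 0.703) the density of all other sequence of those autosomes. The ratio on chromosome 19 that was likewise not matched was 1.28 (0.982 to 1.65).

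**Figure D5:**
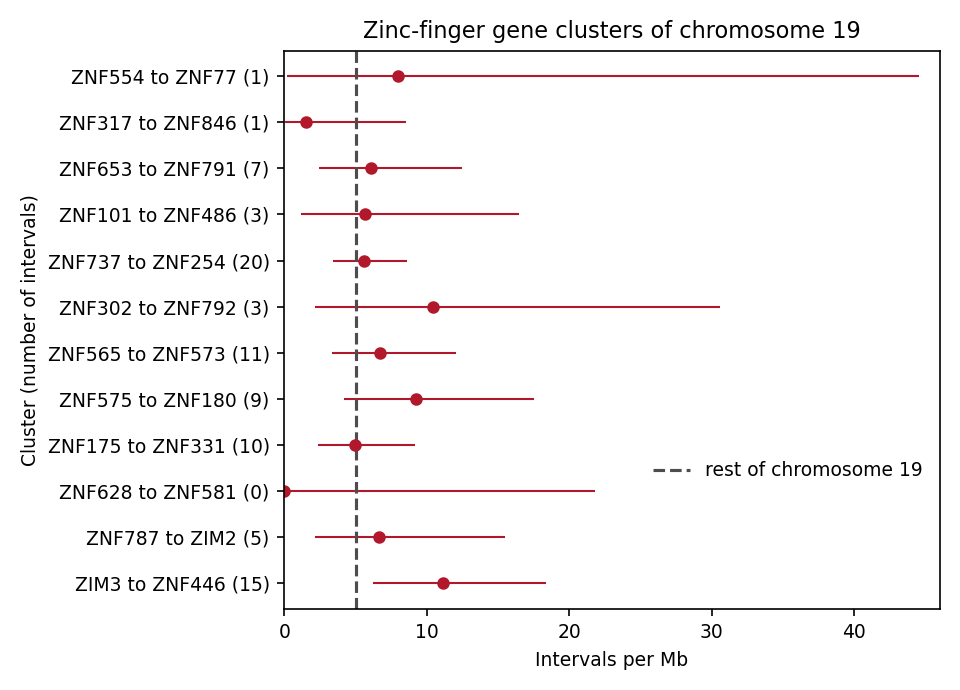
Intervals per Mb (horizontal axis) in each of the 12 zinc-finger gene clusters of chromosome 19, named by first and last gene with the number of intervals in brackets, with exact Poisson 95% intervals and a dashed line at the 5.03 per Mb of the rest of the chromosome. The interval of the cluster from ZIM3 to ZNF446, with 15 intervals at 11.1 per Mb, lies above the line, and those of the other 11 clusters cross it.

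Among single clusters, the last before the long-arm telomere, from ZIM3 to ZNF446, was densest of those with at least 10 intervals, at 11.1 per Mb (6.23 to 18.4), with 14 SOX2-only and 1 shared interval. The largest, from ZNF737 to ZNF254 beside the centromere, held 20 in 3.59 Mb (5.56 per Mb, 3.40 to 8.59), of which 19 were SOX2-only. The cluster from ZNF575 to ZNF180 was the one with more than 1 shared interval, 4 of its 9.

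Zinc-finger gene bodies held 57 intervals in 42 of the 264 genes, where 129 of all 1480 coding genes (8.72%) held one. Of these, 46 lay in introns, 10 in exons outside the coding sequence and 1 in a coding exon. Exons of any annotated gene, coding or non-coding, took 18.8% of the intervals inside clusters and 4.67% of those outside. The difference was 14.2 points (6.32 to 24.0), and the share of bases in exons was not computed inside and outside clusters. The interval with the highest total signal on the chromosome was shared and lay in a non-coding part of an exon of ZNF714 (chr19:21299569-21300176, 12219). The next shared ones were in an intron of ZNF235 (chr19:44796012-44796771, 9654) and in the coding exon of ZNF582 (chr19:56894910-56895761, 8468), whose printed window holds an AP-1 motif. The strongest SOX2-only intervals in zinc-finger genes were intronic, in ZNF254 (7443 and 5461), ZNF566 (5826) and ZNF541 (5180), the last outside any cluster and with 2 SOX cores.

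Among all protein-coding genes of the chromosome, those with most intervals were URI1, which encodes a prefoldin-like chaperone, and ARHGAP35, which encodes a GTPase-activating protein, with 6 each. In URI1 all 6 were SOX2-only, with total signals between 1294 and 2930. In ARHGAP35, 3 were shared (2069, 2495 and 1721) and lay nearer the gene's start than the 3 SOX2-only ones (3212, 3293 and 1265). Genes with 4 included ZNF507, UBA2 (a subunit of the SUMO-activating enzyme), DPY19L3 (a C-mannosyltransferase) and CEP89 (a centriole protein). All 4 were SOX2-only in UBA2, DPY19L3 and CEP89, and 3 of the 4 in ZNF507. The phosphatase gene PPP5C had 3 (3687, 5759 and 5636). ZNF565 and ZNF254 also had 3 each, with median total signals of 1681 and 5461. In all, 178 intervals lay in the bodies of the 129 coding genes, 36 of which held at least 2.

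Among gene families that are clustered on this chromosome, the CEACAM and PSG genes, which encode cell adhesion molecules and pregnancy-specific glycoproteins of the placenta, had the highest density. In 6 of their 22 genes lay 7 intervals, 14.4 per Mb of gene body (5.79 to 29.6), at 45.9% GC. Of these, 4 were SOX2-only, 1 was shared and 2 were SOX2-DBD-only. Zinc-finger genes had 7.07 per Mb (5.36 to 9.16). Of 20 olfactory receptor genes 1 held an interval, near the 8.72% of all coding genes. The kallikrein (15 genes), LILR (10), KIR (7), SIGLEC (11), cytochrome CYP2 and CYP4F (12), galectin (6), fucosyltransferase (5), formyl peptide receptor (3) and ribosomal protein genes (12) held 0. Their bodies are short, and the upper Poisson limits, from 16.4 per Mb for the cytochrome genes to 119 for the galectins, all lie above the 5.36 of the whole chromosome.

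A list of 35 genes for transcription factors, chromatin proteins and surface or signalling proteins of fibroblasts gave 14 with an interval within 50 kb, where 35.5% of all 1480 coding genes have one. JUNB, JUND and FOSB, which encode subunits of AP-1, had 0, as did CEBPA, KLF2 and SMARCA4. ZNF536 had 0 over a gene body of 489 kb. Within 50 kb of ZNF507 lay 6, of TSHZ3, a zinc-finger homeobox gene, 4, and of HIF3A, a hypoxia-inducible factor subunit, 3. TEAD2, a Hippo-pathway factor, and AXL, a receptor tyrosine kinase, had 1 SOX2-only and 1 shared interval each. The window of the SOX2-only interval in AXL, 986 bp from an annotated transcript start inside the gene, held both a SOX core and an AP-1 motif.

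Along the chromosome the long arm was denser than the short arm. The short arm held 73 intervals, 2.99 per Mb (2.34 to 3.76), at 49.6% GC, and the long arm 226, 7.20 per Mb (6.29 to 8.20), at 47.4% GC. Genes per Mb were alike, at 26.3 and 26.7, and the shared share was 19.2% and 21.2%. The median spacing of neighbouring intervals was 67.1 kb, and on each of the other autosomes it was between 14.3 and 27.03 kb. Over the 56 tiles of 1 Mb, interval counts and GC content had a Pearson r of -0.412 (Spearman rho -0.48), and counts and coding genes -0.352 (rho -0.33), as descriptions of tiles of 1 chromosome.

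The 1 Mb tile with most intervals ran from chr19:43000001-44000000 and holds the PSG genes, with 19 intervals. Of these, 10 were SOX2-only, 7 shared and 2 SOX2-DBD-only. The strongest was SOX2-only and lay 30.8 kb from PSG3 (chr19:43194526-43195503, total signal 7812). The tile around URI1 and CCNE1, the cyclin E gene, held 13, of which 12 were SOX2-only. Tiles with 12 each covered ZNF430, ZNF714 and other zinc-finger genes, the genes from PDCD5 to PEPD including CEP89 and CEBPA, the genes from PEPD to WTIP including UBA2, and the genes around ARHGAP35 and SAE1. The last of these differed in class: 7 of its 12 were shared, 3 of them in ARHGAP35 and 3 in SAE1, which encodes the partner subunit of UBA2 in SUMO activation. The strongest SOX2-only interval of the chromosome lay outside genes and far from protein-coding ones (chr19:29242095-29243884, 8484). The nearest of these, at 453 kb, was UQCRFS1, which encodes the Rieske protein of the respiratory chain. Another of the strongest shared intervals lay in an intron of TSHZ3 (chr19:31723761-31724721, 8124). Among the strongest SOX2-only ones were introns of AKT2, the insulin-responsive kinase gene (7612), and CEACAM20 (7578), and a site 6.71 kb from ZNF430 (7872).

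The 8 intervals listed for SOX2-DBD alone were wide, with a median of 1072 bp against 533 bp for SOX2-only and 359.5 bp for shared intervals, and the same order held elsewhere (1040, 559 and 373 bp). Of the 8, 3 lay in zinc-finger gene clusters, which make up 23.7% of the sequence, at 1.93 times (0.2997 to 9.92) the density outside. The strongest lay in a non-coding gene 16.4 kb from IZUMO2, a sperm protein gene (chr19:50638464-50640289, total signal 9321). PSG5 and PSG8 held 1 each in introns (4745 and 3821). ZNF763 and ZNF845 had 1 each within 1 kb of their starts (5303 and 3548), and ZNF112 had 1 in an intron (3360). The other two lay in an intron of PEPD, the prolidase gene (2825), and in the long non-coding gene LINC01531 (2527). Their windows were rich in repeated 31-mers, at a mean of 25.0% against 8.06% for this class elsewhere and 6.64% and 7.41% for the SOX2-only and shared windows of chromosome 19. In 7 of the 8 windows at least some 31-mers were repeated, and the part of this in their being listed was not tested.

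A SOX core lay in 140 of the 299 windows (46.8%, 41.2 to 52.5), the same share as on the other autosomes (47.2%), and in 19.8% of all tiles of the chromosome. Tiles weighted to the GC content of the intervals held it in 30.95%, so the intervals had 1.51 times that share on chromosome 19 and 1.51 times on the others. The classes differed here. SOX2-only windows held a core in 50.7% (44.2 to 57.1) and shared ones in 32.3% (21.9 to 44.6), a difference of -18.4 points (-30.5 to -4.45). On the other autosomes shared windows held it in 48.4%, and chromosome 19 minus the others was -16.1 points (-26.5 to -3.75). Tiles at the GC content of the shared windows hold it in 27.2% on chromosome 19 and 31.03% elsewhere. The low share was not limited to gene starts, at 5 of 17 there (29.4%) and 15 of 45 away from them (33.3%).

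AP-1 motifs, the sites of JUN and FOS dimers, lay in 31 windows (10.4%, 7.40 to 14.3), against 3.10% of the tiles of the chromosome. SOX2-only windows held one in 10.0% (6.79 to 14.6), 3.51 points (0.242 to 8.09) above the 6.54% of the other autosomes. Shared windows held one in 11.3% (5.58 to 21.5), against 16.9% elsewhere, and the interval of that difference, -11.4 to 4.604 points, includes 0. Elsewhere in the genome AP-1 motifs were therefore more frequent in shared than in SOX2-only windows. On chromosome 19 the classes differed by 1.25 points (-6.07 to 12.0), with 7 of 62 shared windows. That interval is too wide to tell whether the difference between classes seen elsewhere is also present here.

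Signal values were of the same size as elsewhere. The median total signal was 2218 for SOX2-only intervals (lowest 1190, highest 8484) against 2285 on the other autosomes, and 2586 for shared intervals (1235 to 12219) against 2751. Of the 291 intervals in the SOX2 list, 178 overlapped the down-sampled list (61.2%, 55.5 to 66.6), against 64.3% elsewhere.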

How the data were processed

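CUT&RUN with an antibody against the V5 tag was compared between SOX2 and SOX2-DBD in BJ fibroblasts. The peak lists are the authors' deposited files, and per the submitters' processing notes the tools used were Bowtie2 2.3.4.1, SAMtools, bedtools 2.27.1, SEACR 1.3 and deepTools 3.5.0, with the hg19 build. Their roles, the threshold, the filters, the sequencing depth and whether replicates were pooled are not given in the sources used here. Each row's total and maximum signal were deposited by the authors with no stated normalization and served here to rank intervals and describe classes. Shared rows carry identical signal in both lists, and which group gave it is not known. A seventh column of the shared rows is a deposited score of unstated meaning and was not used in a result. The down-sampled SOX2 list carries positions alone.

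Intervals were classed by list membership after removal of exact duplicates. Centres were placed on GENCODE release 44 mapped to GRCh37, with starts (1 kb either side) taking precedence over exons, and exons over introns. GC content and motifs were read from 200 bp windows, densities per Mb of determined bases, and expected counts from 10 kb tiles in bands of 2 points of GC, with Python 3.11.15. The counting code was tested on simulated data. With 1 list per group no p-value was computed, and intervals at 95% confidence cover counting error only. The chromosome, its gene lists and the comparisons were chosen with earlier results of these data known. Genes named are the 10 with most intervals, the 5 intervals of highest total signal in each class, every SOX2-DBD-only interval, the 10 of highest signal at protein-coding starts and in zinc-finger genes, the listed families and regulators, and the 1 Mb tiles with the highest 5 counts. Printed windows follow the same rule, leaving out those that overlap a UTR. A few genes and windows chosen this way are not reported here.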

Additional observations from a re-analysis of the deposited data

How the results depend on the processing

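Over 10 results, 33 alternatives were computed, 3 of them chosen after seeing the data. Of the 33, 24 moved a value by less than its counting interval, 9 moved it by more and 0 reversed it. A reversal could be counted only for the density of chromosome 19, relative to other autosomes or at equal GC content. Shares and means have no direction, and the zinc-finger ratio had an interval that includes 1. Outside this count, shared intervals lay above the share of bases within 1 kb of starts (27.4% against 18.9%). Within 5 kb they lay below it (31 of 62 against 56.7%), and both counting intervals include the share of bases. The density of chromosome 19 relative to other autosomes rose from 0.243 to 0.322 against chromosomes 17 and 22 only. At equal GC content, observed over expected was 0.631 with 1 kb tiles and 0.440 with 100 kb tiles, against 0.520. The SOX2-DBD-only share was 5.56% in the upper 50% by total signal. Mean window GC was 39.3% over 1000 bp. The share near transcription starts was 50.5% at 5 kb and 6.69% at protein-coding transcripts. In 100 bp windows a SOX core lay in 27.8% and an AP-1 motif in 5.69%, a change that follows from the shorter window. The density ratio of zinc-finger clusters was 1.31 (1.00 to 1.69) with ZNF symbols only and 1.33 (1.02 to 1.71) per unique length, where the interval no longer includes 1, and 1.10 (0.849 to 1.42) with gaps up to 500 kb. Leaving out a replicate was not possible with 1 list per group. No paired analysis was possible because peak lists are filed under 1 replicate number per group. Depth is unknown, the counts of 8 SOX2-DBD-only and 62 shared intervals limit what their shares can show, and variation between samples was not measured.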
